A study of Mus musculus with 17 samples.

Results

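The genes described here build the membrane of the red blood cell or supply its carbonic anhydrase. They are Spnb1 (the erythroid beta spectrin, now named Sptb), Ank1 (erythroid ankyrin), Slc4a1 (the anion exchanger band 3), Gypc (glycophorin C), Kel (the Kell blood group endopeptidase), Rhag (the Rh-associated glycoprotein), Car1 and Car2 (cytosolic carbonic anhydrases). Every non-control probe that the array files name for one of these genes was taken, which gave 15 of 41174 probes and 8 of 28090 gene names: 5 probes of Ank1, 4 of Spnb1 and 1 of each other gene. The genes were chosen with earlier results of these data known, but their probes were taken by name alone.

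Early blood cells of 6 populations were sorted from mouse bone marrow and their mRNA was measured with Agilent arrays of the mouse transcriptome read in a single color: long-term and short-term hematopoietic stem cells (LT-HSC and ST-HSC), multipotent progenitors (MPP), common myeloid progenitors (CMP), granulocyte-monocyte progenitors (GMP) and megakaryocyte-erythroid progenitors (MEP). The 17 arrays comprised 2 of LT-HSC and 3 of every further population. All cells came from untreated wild-type female C57Bl/6 mice aged 6 to 8 weeks, and marrow of 10 to 20 mice was combined for each sample, so replicates are separate pools of animals. Marrow was depleted of cells with lineage markers, including the red cell marker Ter119, and enriched for c-kit before sorting. LT-HSC, ST-HSC and MPP, called the HSC subsets, were collected in one kind of sort, and CMP, GMP and MEP, the myeloid populations, in another. Each population is therefore a gate on surface proteins in pooled marrow, not a clone. The array labelled as the pool of 2 LT-HSC samples is called the LT-HSC pool here, and the array of each population that carries no number is called unnumbered.

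The red cell membrane is held in shape by a meshwork of spectrin on its inner face. Ankyrin ties beta spectrin to the anion exchanger band 3, and glycophorin C is a further anchor at the junctions of the mesh. Band 3 trades chloride for bicarbonate, carbonic anhydrase interconverts carbon dioxide and bicarbonate, and the Rh-associated glycoprotein passes ammonia and carries the Rh proteins. The MEP is the progenitor from which red cells and platelets arise, the CMP lies before MEP and GMP in the classical scheme, and most of these genes are known for their activity in late red cell precursors, which the lineage depletion was meant to remove.

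Sequences upstream of the start were given for 3 of the 8 genes, Kel, Spnb1 and Rhag, as RefSeq windows of 300 bases on GRCm38.p6 that run from 250 bases before to 50 bases after the transcription start. They are shown because these genes moved together across the populations, and because GATA words and CACCC words are bound by erythroid factors of the GATA and Kruppel-like families. The words searched on both strands were the GATA word AGATAA with its variant AGATAG, the GATA word TGATAA with its variant TGATAG, and the CACCC word CCNCNCCC, where N is any base. Matches are in capitals.
Kel, chr6:41704276-41704575, minus strand: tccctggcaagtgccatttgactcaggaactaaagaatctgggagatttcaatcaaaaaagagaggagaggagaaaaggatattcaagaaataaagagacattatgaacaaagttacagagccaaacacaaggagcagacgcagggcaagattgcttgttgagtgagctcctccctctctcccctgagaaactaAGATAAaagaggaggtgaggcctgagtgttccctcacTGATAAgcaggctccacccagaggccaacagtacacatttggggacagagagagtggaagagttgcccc
Spnb1, chr12:76710498-76710797, minus strand: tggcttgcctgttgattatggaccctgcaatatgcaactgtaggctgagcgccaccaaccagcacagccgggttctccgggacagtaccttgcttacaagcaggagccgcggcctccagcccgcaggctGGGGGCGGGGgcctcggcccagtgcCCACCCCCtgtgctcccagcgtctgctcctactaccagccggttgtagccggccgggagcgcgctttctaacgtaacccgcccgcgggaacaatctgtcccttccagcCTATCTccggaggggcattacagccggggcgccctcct
Rhag, chr17:40810899-40811198, plus strand: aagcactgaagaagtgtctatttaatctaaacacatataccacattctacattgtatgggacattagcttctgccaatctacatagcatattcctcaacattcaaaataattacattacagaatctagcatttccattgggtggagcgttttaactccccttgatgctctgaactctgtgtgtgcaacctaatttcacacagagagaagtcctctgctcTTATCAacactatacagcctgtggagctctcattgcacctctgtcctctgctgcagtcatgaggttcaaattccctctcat
The Kel window held AGATAA at position -56 and TGATAA at -19. The Rhag window held TGATAA on the opposite strand at -31. The Spnb1 window held AGATAG on the opposite strand at 13, with 3 matches to CCNCNCCC at -121, -119 and -96, of which the first pair overlap. Of 32851 mouse windows of this length, 29.8% held at least 1 of the 4 GATA words and 49.5% held CCNCNCCC, so each match is common and is given as a description.

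The array reads these genes with probes of 60 bases. Those below are shown because the probes of Spnb1 and Ank1 did not all behave alike. The Ank1 probes listed span more than 60 bases of the genome and so cross an exon junction, which only spliced RNA matches in full. Probes that may lie in an untranslated region, the odd Spnb1 probe among them, are not printed. Coordinates are on mm9, as in the array files.
Spnb1 A_51_P452371, chr12:77699638-77699697: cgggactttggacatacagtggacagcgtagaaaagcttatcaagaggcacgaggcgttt
Spnb1 A_52_P672338, chr12:77701389-77701448: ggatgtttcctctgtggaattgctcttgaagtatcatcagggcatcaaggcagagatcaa
Ank1 A_52_P655842, chr8:24250690-24251684: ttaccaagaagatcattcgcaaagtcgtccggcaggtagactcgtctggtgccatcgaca
Ank1 A_52_P42857, chr8:24243104-24246086: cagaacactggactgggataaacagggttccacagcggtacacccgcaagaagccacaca
Ank1 A_52_P350893, chr8:24231065-24231410: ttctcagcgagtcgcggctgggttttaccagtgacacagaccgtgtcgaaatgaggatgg
Further single probes lie at chr11:102210256-102210315 (Slc4a1), chr6:41636474-41636533 (Kel), chr17:40976929-40976988 (Rhag), chr3:14767486-14767545 (Car1) and chr3:14900206-14900265 (Car2).

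Values are quantile-normalized log2 intensities, where a step of 1 is a doubling, and levels of different probes cannot be set against each other. Precision is limited by how few arrays there are. The scanner software called 41.4% to 70.1% of spots well above background, depending on the array. The unnumbered LT-HSC array was the dimmest: its 75th percentile intensity was 51.6, and the others had 237 to 514. The arrays were scanned in 4 runs, numbered here in order: run 1 held arrays 1 and 2 of CMP, GMP and MEP, run 2 the unnumbered MPP, CMP and GMP, run 3 the unnumbered ST-HSC and MEP, and run 4 the rest of the HSC subsets. Because most HSC subset arrays were in run 4 and most myeloid arrays in run 1, within-run differences stand beside the pooled ones below. The erythroid genes Gata1, Klf1, Epor and Tal1 were higher in MEP than in the mean of the others by 1.36 to 4.92 (log2), while Nfe2 was lower (difference -0.91). The late erythroid genes, which mark red cell precursors past the progenitor stage, were also all 4 higher in MEP: Hba-a1 by 2.4, Hbb-b1 by 2.17, Alas2 by 2.44 and Epb4.2 by 4.03. Their part in the MEP levels of the members was not tested. Of 6 megakaryocyte genes 5 were lower in MEP, with Pf4 at a difference of -3.42, so the MEP arrays carried raised erythroid and not raised megakaryocyte genes. Of 5 stem cell genes Procr, Hlf, Meis1 and Ly6a were lower in MEP. Slamf1 was under the detection mark on every MEP array and cannot be placed. In MEP 3 of 4 GMP, 3 of 4 macrophage and 2 of 4 B cell genes were also lower, and none higher. Of all genes 15% were lower in MEP and 15.8% higher. None of the 5 mature neutrophil or 3 T cell genes passed the test. In the bulk RNA of a gate, fewer cells of a type and less RNA per cell cannot be told apart.

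MEP held the highest mean of all 15 probes. Against the mean of the other 5 populations, all 15 probes of all 8 genes were higher in MEP (limma, Benjamini-Hochberg adjusted p at 0.05 over 41174 probes), where 17.9% of all probes were. The median difference was 4.68 over the 15 probes and 0.04 over all probes (log2). Every MEP array was above every other array for 14 of the 15 probes, as for 8.11% of all probes. The skeleton genes, Kel, Rhag and Car1 stood 4.26 to 5.87 above the mean of the others but for 1 Spnb1 probe, Car2 and Slc4a1 stood 3.08 and 2.74 above, and Gypc 1.02. This order of sizes depended on the background treatment: with normexp correction Rhag was at 2.91 and Spnb1 at 2.84 at most, below Car2 at 3.07.

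**Figure D1:**
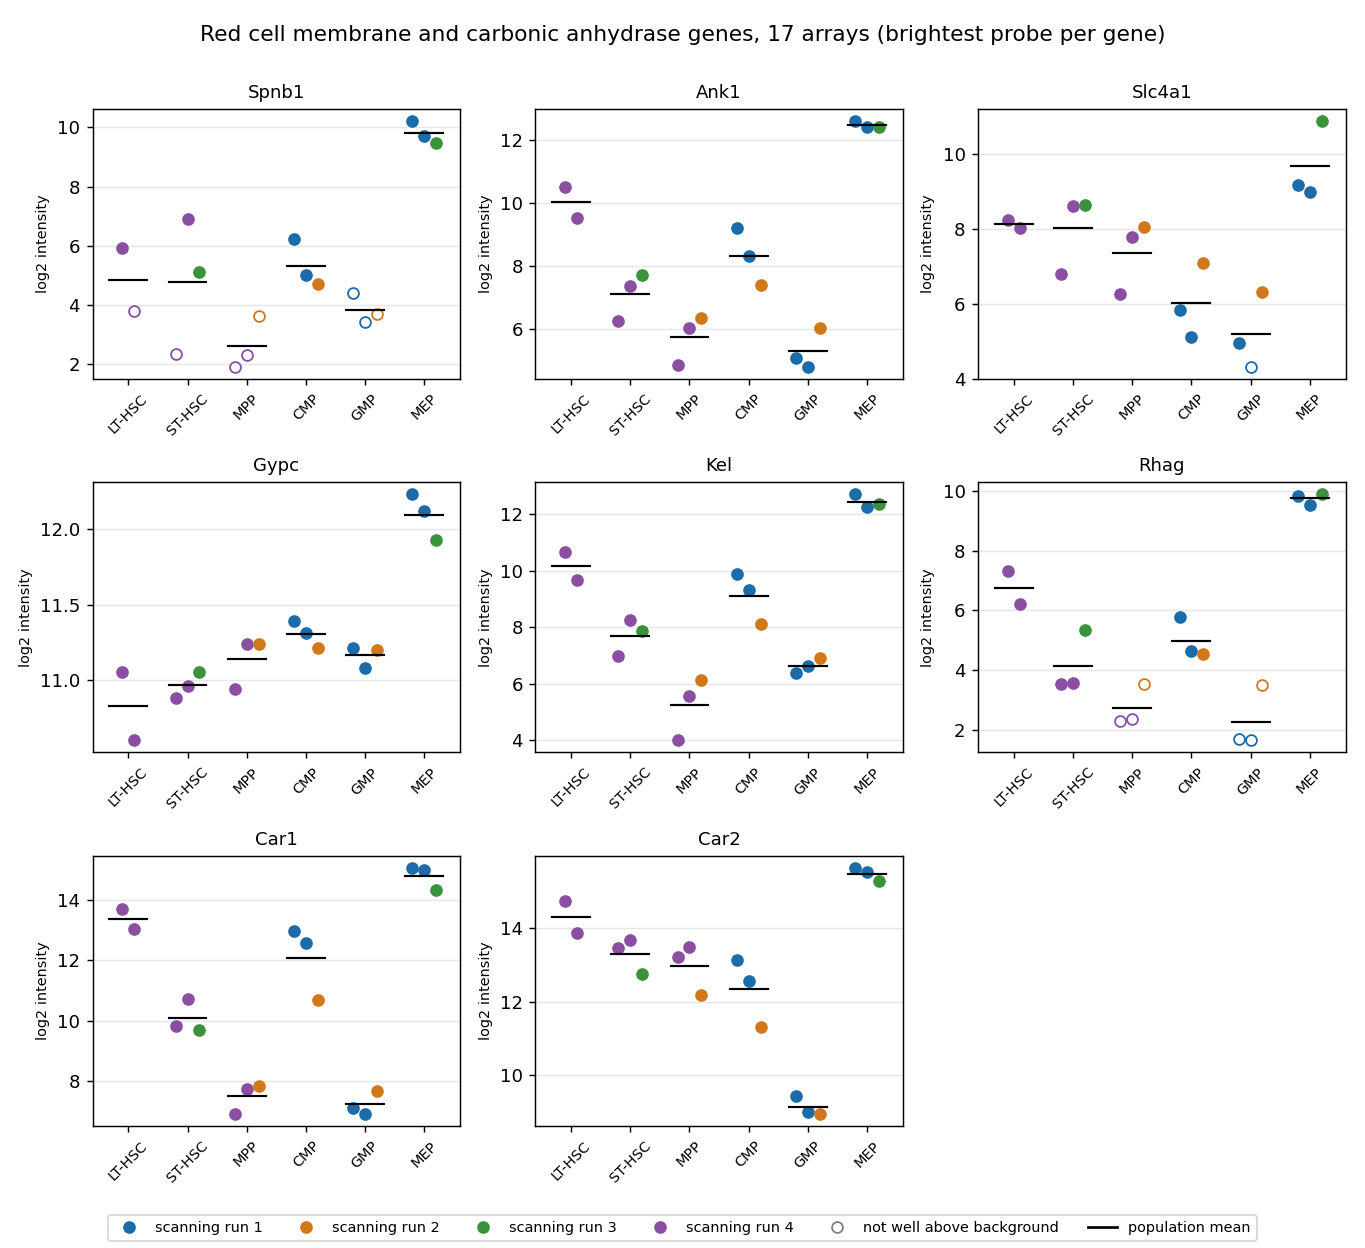
Log2 intensity of the brightest probe of each gene on the 17 arrays, by population. Each point is 1 array, colored by scanning run and open where the probe was not well above background, and the black line is the population mean. The 3 MEP arrays are above the other 14 in every panel, LT-HSC has the next highest mean for Ank1, Slc4a1, Kel, Rhag, Car1 and Car2, and Car2 is lowest in the 3 GMP arrays.

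Spnb1, beta spectrin, is read by 4 probes, of which 3 gave the same picture. The brightest, A_51_P452371, was at 10.22, 9.71 and 9.48 in MEP, 6.23, 5 and 4.69 in CMP, and between 2.33 and 6.89 in ST-HSC, the widest spread of any population. The 3 probes differed between MEP and the others by 5.53 ± 0.72, 5.49 ± 0.42 and 5.63 ± 0.48 (log2, SE). The fourth, A_51_P489138, behaved otherwise: it was at 5.83, 5.82 and 5.69 in MEP and at 5.79, 5.42 and 5.34 in CMP, so those populations overlapped. Its MEP to CMP difference was 0.27 (95% interval -0.38 to 0.91, adjusted p = 0.662, limma), against 4.38 to 4.5 for the other Spnb1 probes, and it was the 1 member probe of 15 not called higher in MEP than in CMP. It was well above background in neither LT-HSC array. This probe is placed at chr12:77682089-77682148, base 9720 of its transcript, on which A_51_P452371 and A_52_P672338 lie at bases 6769 and 6465. The remaining probe, A_52_P490012 at chr12:77697657-77697716, is placed at base 7483 of another annotated transcript, a reticulocyte mRNA of 8126 bases. Positions on these transcripts are numbered separately and were not aligned. The share of shorter and longer transcripts was not measured. The study listed Spnb1 among predicted microRNA targets chosen on these same samples, so its pattern here is not independent of that list. The same holds for Spnb2, Slc2a1, Car7, Abcg4, Paqr9 and Col5a1 below, and for the stem cell genes Hlf and Meis1.

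Ank1, ankyrin, is read by 5 probes. Its brightest, A_51_P269375 (chr8:24260740-24260799), was detected on all 17 arrays and stood at 12.62, 12.44 and 12.42 in MEP. It was at 10.52 and 9.53 in LT-HSC, 9.22, 8.31 and 7.38 in CMP, 6.24 to 7.72 in ST-HSC, 4.83 to 6.33 in MPP and 4.79 to 6.02 in GMP. MEP exceeded the mean of the others by 5.21 ± 0.42 (log2, SE; adjusted p = 7.33e-07, limma). The other 4 probes differed by 5.87, 4.26, 4.43 and 4.5. A_52_P562817 (chr8:24259629-24259688), about a kilobase from the brightest, gave the same order of populations. The exon junction probes A_52_P42857 and A_52_P350893 were well above background on 5 and 4 of 17 arrays, all of them MEP or CMP arrays. Where no array of a population was well above background the fold has only a lower bound, set by the dimmest signal that counts as detected on each array. In MEP against ST-HSC these probes were at least 31.6-fold and at least 13.8-fold higher (adjusted p = 1.26e-05 and 1.26e-06, limma).

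**Figure D2:**
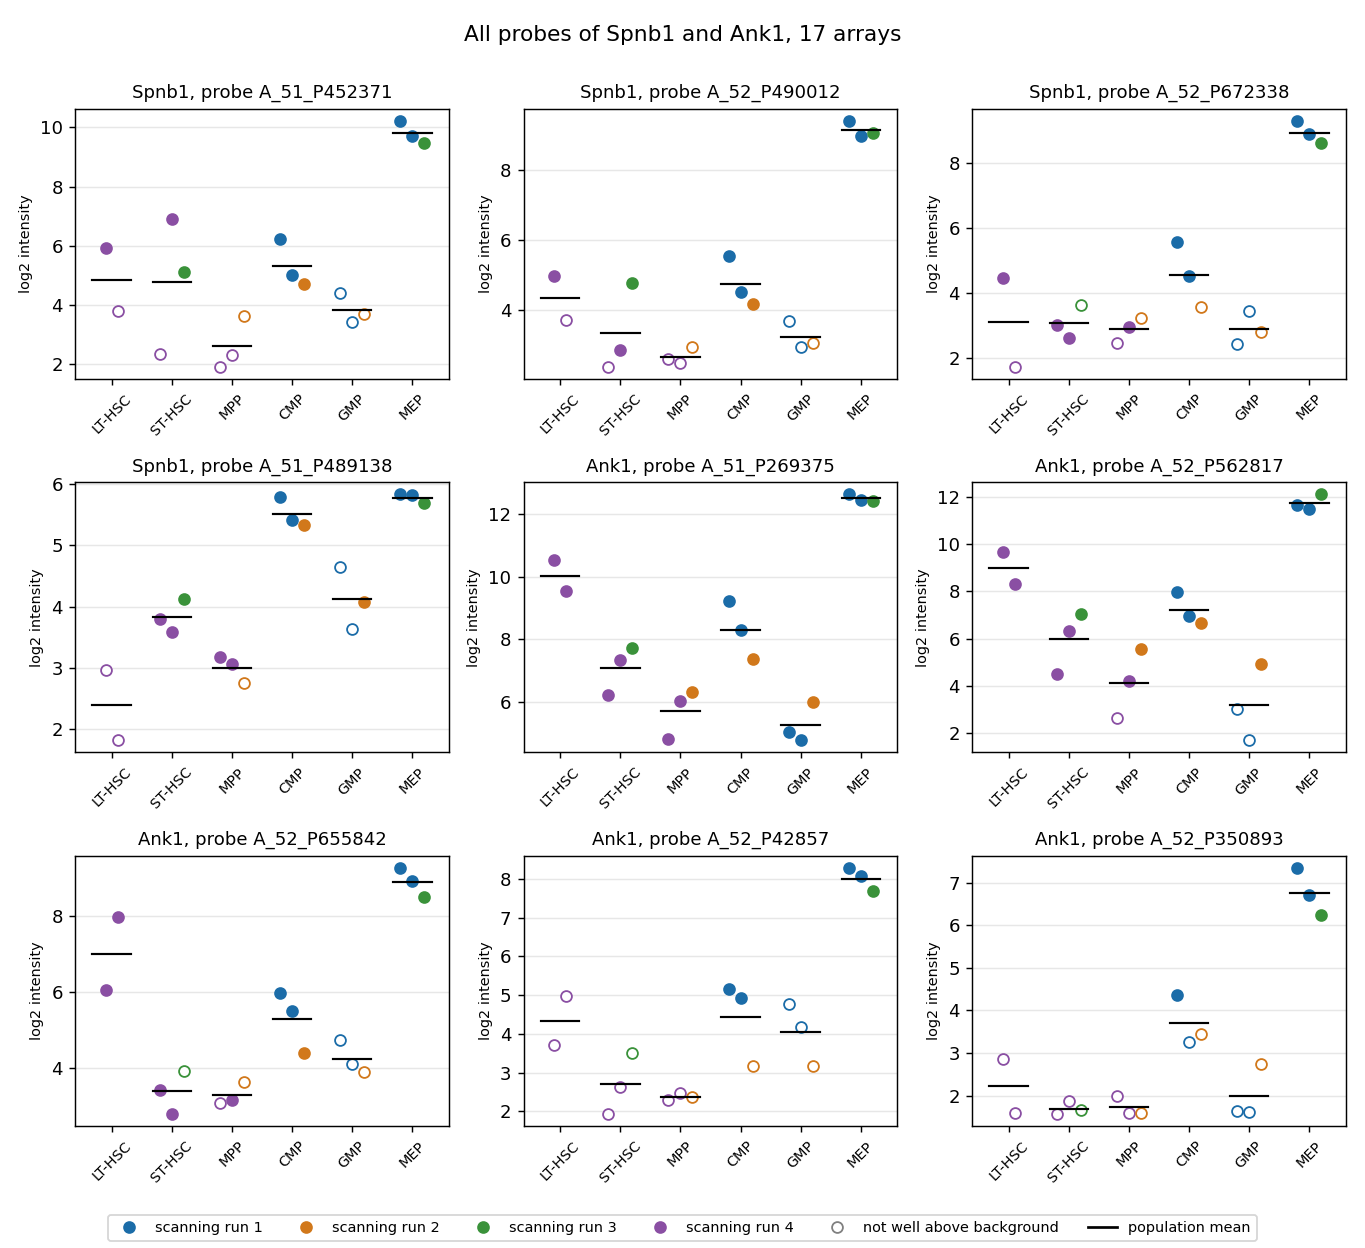
Log2 intensity of all 4 Spnb1 probes and all 5 Ank1 probes on the 17 arrays, by population, with points and lines as in the plot of the members. MEP is highest in each panel, but for Spnb1 A_51_P489138 the CMP arrays, at 5.34 to 5.79, reach the MEP arrays, at 5.69 to 5.83.

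Slc4a1, the band 3 exchanger, was at 9.16 and 8.99 in MEP 1 and 2 and at 10.88 in the unnumbered MEP array. LT-HSC was at 8.24 and 8.01, ST-HSC at 6.78, 8.62 and 8.64, and MPP at 6.26, 7.78 and 8.04. CMP was at 5.83, 5.1 and 7.09 and GMP at 4.94, 4.32 and 6.31, of which 4.32 was not well above background. Of the 8 genes only Slc4a1 and Car2 had lower means in both CMP and GMP than in every HSC subset. GMP was lower than LT-HSC by 2.93 (adjusted p = 0.0185, limma) and than ST-HSC by 2.82 (adjusted p = 0.0171, limma), while CMP and LT-HSC differed by 2.12 without passing the test (adjusted p = 0.0824, limma). GMP shared no scanning run with LT-HSC or ST-HSC. Of the 15 member probes 6 were called lower in GMP than in ST-HSC, but 2 with the run as a block. Against LT-HSC 8 were called lower in both fits. Within MEP, CMP and GMP, the array outside run 1 was the highest each time. MEP stood 2.74 ± 0.58 above the mean of the others (log2, SE; adjusted p = 0.00243, limma), 3.61 above CMP within run 1 and 2.25 above ST-HSC within run 3. MEP did not pass against LT-HSC (1.55, 95% interval -0.23 to 3.34) or ST-HSC (1.67, 0.07 to 3.27, adjusted p = 0.112, limma). Among probes outside the set, the most similar over the 17 arrays were those of the alpha globin Hba-a1 (Pearson r = 0.96), the chloride channel Clcn2 (0.96) and 1 probe of the beta globin Hbb-b1 (0.94). These globins, made in late red cell precursors, likewise had higher means in each HSC subset than in CMP and GMP. Hba-a1 was at 12.04 and 12.34 in LT-HSC, 11.19 to 12.5 in ST-HSC and 9.93 to 11.22 in MPP, of which the last overlapped CMP at 8.47 to 10.25. The brightest Hbb-b1 probe was at 12.6 or more on every HSC subset array and at 10.3 to 11.7 in CMP. Of the 4 late erythroid genes 1 was called lower in CMP than in MPP, 2 than in ST-HSC and 3 than in LT-HSC. The part of RNA from late red cells or of the scanning run in the Slc4a1 levels was not tested.

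Rhag, the Rh-associated glycoprotein, was at 9.83, 9.53 and 9.88 in MEP. LT-HSC followed at 7.31 and 6.2, then CMP at 5.79, 4.66 and 4.53 and ST-HSC at 3.54, 3.57 and 5.34. No MPP or GMP array was well above background. MEP exceeded the mean of the others by 5.56 ± 0.47 (log2, SE; adjusted p = 1.15e-06, limma), and was at least 114-fold above MPP (adjusted p = 1.45e-06, limma) and at least 45.3-fold above GMP (adjusted p = 1.42e-06, limma).

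Gypc, glycophorin C, was the flattest member. It was bright on all 17 arrays, from 10.6 in the unnumbered LT-HSC array to 12.23 in MEP 1. MEP was at 12.23, 12.12 and 11.93 and the next population, CMP, at 11.39, 11.31 and 11.21. Its difference of 1.02 ± 0.12 (log2, SE), or 2.02-fold, still passed the test (adjusted p = 1.82e-05, limma), with all MEP arrays above all others. Of the other 5 populations no neighbors in the order CMP, GMP, MPP, ST-HSC, LT-HSC passed the test, with differences of 0.02 to 0.18, though the CMP arrays lay just above the GMP arrays.

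Kel, a zinc endopeptidase of the red cell surface, was at 12.7, 12.26 and 12.35 in MEP and 10.65 and 9.66 in LT-HSC. CMP was at 9.88, 9.33 and 8.1, ST-HSC at 6.97, 8.25 and 7.86, GMP at 6.39 to 6.92 and MPP at 4 to 6.13. MEP stood above every other array, and by 4.68 ± 0.43 above the mean of the others (log2, SE; adjusted p = 2.31e-06, limma). The probe most like Kel over the arrays was that of Klf1, the erythroid Kruppel-like factor (Pearson r = 0.99), and the third was Ermap, another blood group protein (0.98).

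Car1 was detected on all 17 arrays and ranged widely between populations. It was at 15.06, 14.99 and 14.34 in MEP, 13.69 and 13.05 in LT-HSC, and 12.99, 12.59 and 10.69 in CMP. ST-HSC was at 9.7 to 10.71, MPP at 6.93 to 7.83 and GMP at 6.92 to 7.66. The arrays of MPP and GMP overlapped while those of ST-HSC lay above both. MEP exceeded the mean of the others by 4.75 ± 0.4 (log2, SE; adjusted p = 1.07e-06, limma). Against LT-HSC alone its margin was 1.43 (95% interval 0.19 to 2.67), which did not pass after adjustment (adjusted p = 0.0783, limma).

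Car2 was high outside GMP. It was at 15.64, 15.53 and 15.3 in MEP, 14.74 and 13.87 in LT-HSC, 12.75 to 13.68 in ST-HSC, 12.18 to 13.49 in MPP and 11.31 to 13.14 in CMP, but at 9.44, 9 and 8.95 in GMP. Every GMP array lay below every other array, as for 2.15% of all probes. GMP was below CMP by 3.21 (adjusted p = 0.000941, limma), MPP by 3.84 (adjusted p = 5.73e-05, limma), ST-HSC by 4.17 (adjusted p = 5.69e-05, limma) and LT-HSC by 5.17 (adjusted p = 1.28e-05, limma). MEP stood 3.08 ± 0.35 above the mean of the others (log2, SE; adjusted p = 1.67e-05, limma). Above GMP, in the order MEP, LT-HSC, ST-HSC, MPP, CMP, no neighbors passed the test. The arrays of MEP lay above those of LT-HSC (difference 1.19, 95% interval 0.1 to 2.28, adjusted p = 0.096, limma) and those of LT-HSC above those of ST-HSC (1.01, -0.08 to 2.1, adjusted p = 0.342, limma), while ST-HSC, MPP and CMP overlapped in turn. Car1 and Car2 thus parted in MPP, where Car1 was near its GMP level (difference between GMP and MPP -0.26, 95% interval -1.37 to 0.85) and Car2 was not.

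MEP could be compared with CMP, GMP and ST-HSC within single scanning runs. Within run 1 all 15 probes were higher in MEP 1 and 2 than in CMP 1 and 2, by 0.22 to 4.45, and than in GMP 1 and 2 (log2). The difference from GMP was 1.04 to 8.01 for the 6 probes detected on both sides, and GMP 1 and 2 did not detect the other 9. Within run 3 all 15 were higher in the MEP array than in the ST-HSC array, by 0.88 to 5.06 for the 11 detected on both. Population by population, 11 of the 15 probes were higher in MEP than in LT-HSC, where 17.9% of all probes were. MEP and LT-HSC shared no run, and that count was 7 with the scanning run as a block and 9 with slide as a random block. Over all runs 14 probes were higher in MEP than in ST-HSC (17.4%) and 15 each than in MPP (18.2%) and GMP (7.81%). Against CMP 14 of 15 probes were higher in MEP, where 7.24% of all probes were, with Rhag at 4.75 ± 0.61 ahead of the brightest probes of Spnb1 at 4.5 ± 0.93 and Ank1 at 4.19 ± 0.54 (log2, SE). With normexp correction the MEP difference from the mean of the others was 0.45 for the lowest Spnb1 probe and 1.15 for Ank1 A_52_P350893, both still called.

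The next comparison, CMP against GMP, asks whether these populations differ in the genes. Of the 15 probes 8 were called higher in CMP, from Car1, Car2, Kel, Rhag, Ank1 (3 of 5 probes) and Spnb1 (A_51_P489138), where 2.93% of all probes were, and no member was lower. Car1 differed by 4.85 ± 0.51 (adjusted p = 0.000111, limma), or 28.9-fold. Car2 differed by 3.21 ± 0.45, the brightest Ank1 probe by 3.02 ± 0.54 and Kel by 2.47 ± 0.55. Rhag was at least 1.68-fold higher (adjusted p = 0.0196, limma), since GMP did not detect it, and for Ank1 A_52_P350893, which GMP did not detect either, a higher level cannot be read, as the CMP mean of 3.69 lay under the detection marks of the GMP arrays. Slc4a1 (0.82, 95% interval -0.78 to 2.42) and Gypc (0.14, -0.18 to 0.47) did not pass. Within run 1, CMP was above GMP for the 6 probes detected on both sides, by 0.21 to 5.77, and within run 2 for the 8 detected on both, by 0.01 to 3.03. The remaining probes were detected in CMP only, save 3 that neither array of run 2 detected. The 3 CMP arrays spread widely, the unnumbered one being the lowest for Car1, Car2, Kel and Ank1, and the count was 3 without CMP 1 or without GMP 2 and 4 without GMP 1.

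LT-HSC ranked second after MEP for 8 of the 15 probes and CMP for the other 7. This is an order of means: between CMP and LT-HSC 11 of the 15 probes were not called apart. LT-HSC was higher than MPP for 6 probes, where 4.32% of all probes were: Car1 by 5.87 ± 0.57 (adjusted p = 6.11e-05, limma), Kel by 4.92 ± 0.62 (adjusted p = 0.000403, limma), 3 Ank1 probes by 3.72 to 4.88 and Rhag at least 14.3-fold (adjusted p = 0.00335, limma). Against ST-HSC, 4 probes were higher in LT-HSC, where 2.49% of all probes were: Car1 by 3.28 ± 0.57, the Ank1 probes A_52_P655842 by 3.62 ± 0.56 and A_51_P269375 by 2.92 ± 0.6, and Kel by 2.46 ± 0.62 (adjusted p = 0.0478, limma). Spnb1 A_51_P489138 was the 1 probe called higher in ST-HSC, where 0.852% of all probes were, but neither LT-HSC array was well above background and the ST-HSC mean of 3.84 lay under the detection marks of both, 4.09 and 5.86, so a higher level cannot be read from it. ST-HSC in turn exceeded MPP for Car1 by 2.59 ± 0.51 (adjusted p = 0.0174, limma) and Kel by 2.46 ± 0.55 (adjusted p = 0.0358, limma), and for no other member probe, where 0.874% of all probes were. The means of Car1 and Kel thus stepped down from LT-HSC through ST-HSC to MPP. For Kel the step from ST-HSC to MPP did not pass with the scanning run as a block (adjusted p = 0.059, limma) or with normexp background correction (adjusted p = 0.121, limma), while that of Car1 did.

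Run 4 held both LT-HSC arrays beside ST-HSC 2 and 3 and MPP 2 and 3. Of the probes detected on both sides within it, 11 of 12 were higher in LT-HSC than in ST-HSC and 8 of 9 than in MPP, Car1 by 3.09 and 6.04. With the run as a block, 7 probes were higher in LT-HSC than in ST-HSC and 8 than in MPP. Shares of all probes are given for the fit without a block only, so counts with a block have none beside them. Both LT-HSC arrays shared a slide that held no other population, so slide and population cannot be told apart there, and with slide as a random block the count against ST-HSC was 1. Without the LT-HSC pool or without ST-HSC 2 it was 2. Early erythroid markers averaged 10.85 to 11.65 in LT-HSC, 10.2 to 10.67 in ST-HSC and 7.99 to 9.06 in MPP (5 genes), and 1 of the 5, Epor, was higher in LT-HSC than in ST-HSC, by 1.95 (adjusted p = 0.00721, limma). Klf1 (LT-HSC minus ST-HSC 2.34, adjusted p = 0.0535, limma), Gata1 (0.11), Tal1 (0) and Nfe2 (-0.68) did not pass. Late erythroid markers averaged 9.18 to 9.78, 8.42 to 9.34 and 7.59 to 8.52 (4 genes), T cell markers 6.56 to 6.78, 5.17 to 5.46 and 4.33 to 4.83 (3 genes), and B cell markers 9.83 to 10.16, 8.31 to 8.64 and 8.79 to 9.22 (4 genes). The mature neutrophil genes averaged 11.51 to 13.23 in LT-HSC, 10.75 to 12.48 in ST-HSC and 9.35 to 11.4 in MPP. Stem cell markers averaged 9.65 to 10.33, 9.28 to 9.68 and 8.92 to 9.26. Between LT-HSC and ST-HSC, none of the late erythroid, T cell, neutrophil or stem cell genes passed (1, 2, 0 and 1 at an unadjusted p of 0.05 in limma), and 1 of the 4 B cell genes did. Against ST-HSC the averages of other lists lay the other way: macrophage genes averaged 6.39 to 6.71 in LT-HSC and 8.16 to 9.24 in ST-HSC (2 of 4 genes called lower in LT-HSC), megakaryocyte genes 9.12 to 9.18 and 10.36 to 10.51 (2 of 6) and GMP genes 12.07 to 13.99 and 14.17 to 15.17 (0 of 4). In MPP these averaged 7.14 to 7.74, 6.88 to 7.69 and 11.54 to 13.17, with 3 of 6 megakaryocyte genes called lower than in LT-HSC and none of the macrophage or GMP genes. Of the early erythroid genes 4 of 5 were called lower in MPP than in LT-HSC, as were 2 of 3 T cell genes and 1 gene each of the late erythroid, neutrophil, stem cell and B cell lists. The part of other cells in the LT-HSC levels of the members was not tested.

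**Figure D3:**
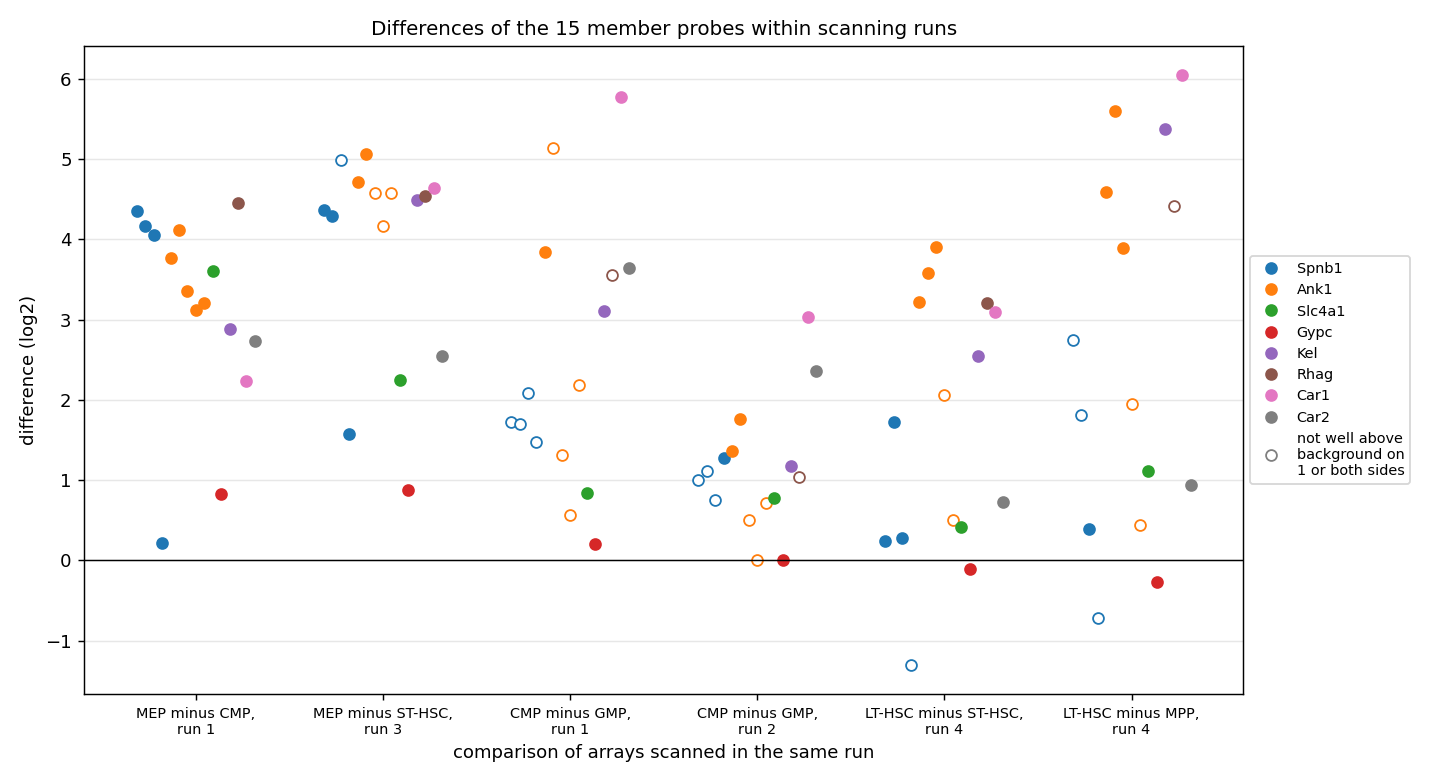
Difference in log2 intensity between populations scanned in the same run, for the 15 member probes colored by gene. Each point is 1 probe, from 2 and 2 arrays in runs 1 and 4 and from 1 and 1 in runs 2 and 3, and is open where one or both sides had no array well above background, so that its size has no firm meaning. MEP is above CMP and ST-HSC, and CMP above GMP, for every filled point, while Car1, at 6.04, heads the LT-HSC differences from MPP in run 4, where 2 probes, of Spnb1 and Gypc, lie below 0.

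The mean of the HSC subsets differed from that of the myeloid populations for 13 of 15 probes, where 41.3% of all probes did. The HSC subsets were lower than the myeloid populations for 12 probes and higher for Car2 alone (1.2 ± 0.27, adjusted p = 0.003, limma), where 23.1% and 18.2% of all probes were. No member probe separated the 8 HSC subset arrays from the 9 myeloid arrays without overlap, as 8.05% of all probes did. With the scanning run as a block 2 probes were called, Spnb1 A_51_P489138 and Ank1 A_52_P350893, both lower in the HSC subsets. The mean of the myeloid populations joins MEP with GMP, and MEP exceeded GMP for all 15 probes. Over the 15 pairs of populations, all 15 probes passed the F-test at an adjusted p of 0.05, as 40.6% of all probes did, and 9 passed p under 1e-06, as 4.9% did. The latter count was 3 without MEP 1 or without MEP 2, 4 without the unnumbered MEP array, 2 with the scanning run as a block and 3 with the replicate number as a block. The 9 were Car1, the brightest Ank1 probe with 2 further Ank1 probes, Car2, Kel, Rhag and 2 Spnb1 probes, A_52_P490012 and A_51_P489138.

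The members were also set beside each other over the 17 arrays, which share the populations and the runs. Ank1 and Rhag were the most alike (Pearson r = 0.99 over 17 arrays), with Ank1 and Kel at 0.97, and Car1 at 0.96 with both Ank1 and Kel. Slc4a1 and Gypc fitted least with the rest, Gypc and Car2 at 0.42 and Slc4a1 and Gypc at 0.43. The 3 most similar to each member were sought among 24541 probes of other genes well above background on at least 3 arrays. For Ank1 they were Spon2, Slc38a5 and Col5a1 (0.99 each), and for Rhag Abcg4, Paqr9 and Blvrb (0.99 each). For Car1 they were Aqp1 (the water channel, 0.99), Bzrpl1 (0.99) and Epor (the erythropoietin receptor, 0.98). Add2 (beta adducin, 0.96) came first for Spnb1, Rec8 (0.98) for Car2 and Surf2 (0.97) for Gypc.

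Of 23 other red cell membrane genes, read by the brightest probe of each, 19 were higher in MEP than in the mean of the others, where 15.8% of all genes were. Their median difference was 1.7. The largest were Add2, beta adducin, by 6.07 (adjusted p = 7.1e-06, limma), Ermap by 5.5 and Rhd, which encodes the Rh protein, by 5.25. Add2 was at 12.23, 11.94 and 11.95 in MEP and at 8.65 and 7.61 in LT-HSC, and no other array exceeded 8.62. Slc2a1, the glucose transporter GLUT1, and Add3, gamma adducin, were lower in MEP, with differences of -3.75 (adjusted p = 2.02e-08, limma) and -0.91. Slc2a1 was at 6.54, 6.82 and 7.04 in MEP and between 9.49 and 11.68 elsewhere. Cd47 and Bcam did not pass. Between LT-HSC and ST-HSC limma called none of the 23 genes (7 at an unadjusted p of 0.05), where 2.93% of all genes were higher in LT-HSC and 0.862% lower. In MPP 7 of the 23 were called lower than in LT-HSC, as were 4.32% of all probes. In CMP 9 were called higher than in GMP, as were 2.93% of all probes, and 2 lower, for which no share is given.

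The general spectrins Spna2 and Spnb2 went the other way. Of 11 relatives of the members that are known outside the red cell, none was called higher in MEP and 6 were called lower than the mean of the others, where 15% of all genes were lower. Spna2, the alpha spectrin of most cells, was at 8.81, 9.2 and 8.37 in MEP and between 11.41 and 12.52 on the other 14 arrays, a difference of -3.38 (adjusted p = 3.35e-08, limma). Spnb2, its beta partner, was at 8.77, 9.09 and 9 in MEP against 11.89 to 13.38, a difference of -3.7 (adjusted p = 7.57e-09, limma). Thus all MEP arrays lay below all others for both general spectrins and above all others for the erythroid Spnb1, save for the probe described above. The calls of the other 4 say less. Ank3 and Spnb3 were well above background in no MEP array, and the mean of the others lay below the dimmest signal that counts as detected there, so no size can be given. Rhcg, detected on 1 of 3 MEP arrays, averaged 4.67 in MEP and 4.44 in CMP against 5.61 to 6.58 in the rest. Spnb4 averaged 8.32 in MEP, within the 8.15 to 8.51 of ST-HSC, MPP, CMP and GMP, and its difference of -0.81 came with a mean of 12.31 in LT-HSC. Ank2, Rhbg and the anion exchanger relatives Slc4a2, Slc4a4 and Slc4a7 did not pass. The LT-HSC arrays of Spnb4 were at 12.44 and 12.19 against 8.02 to 8.83 elsewhere.

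**Figure D4:**
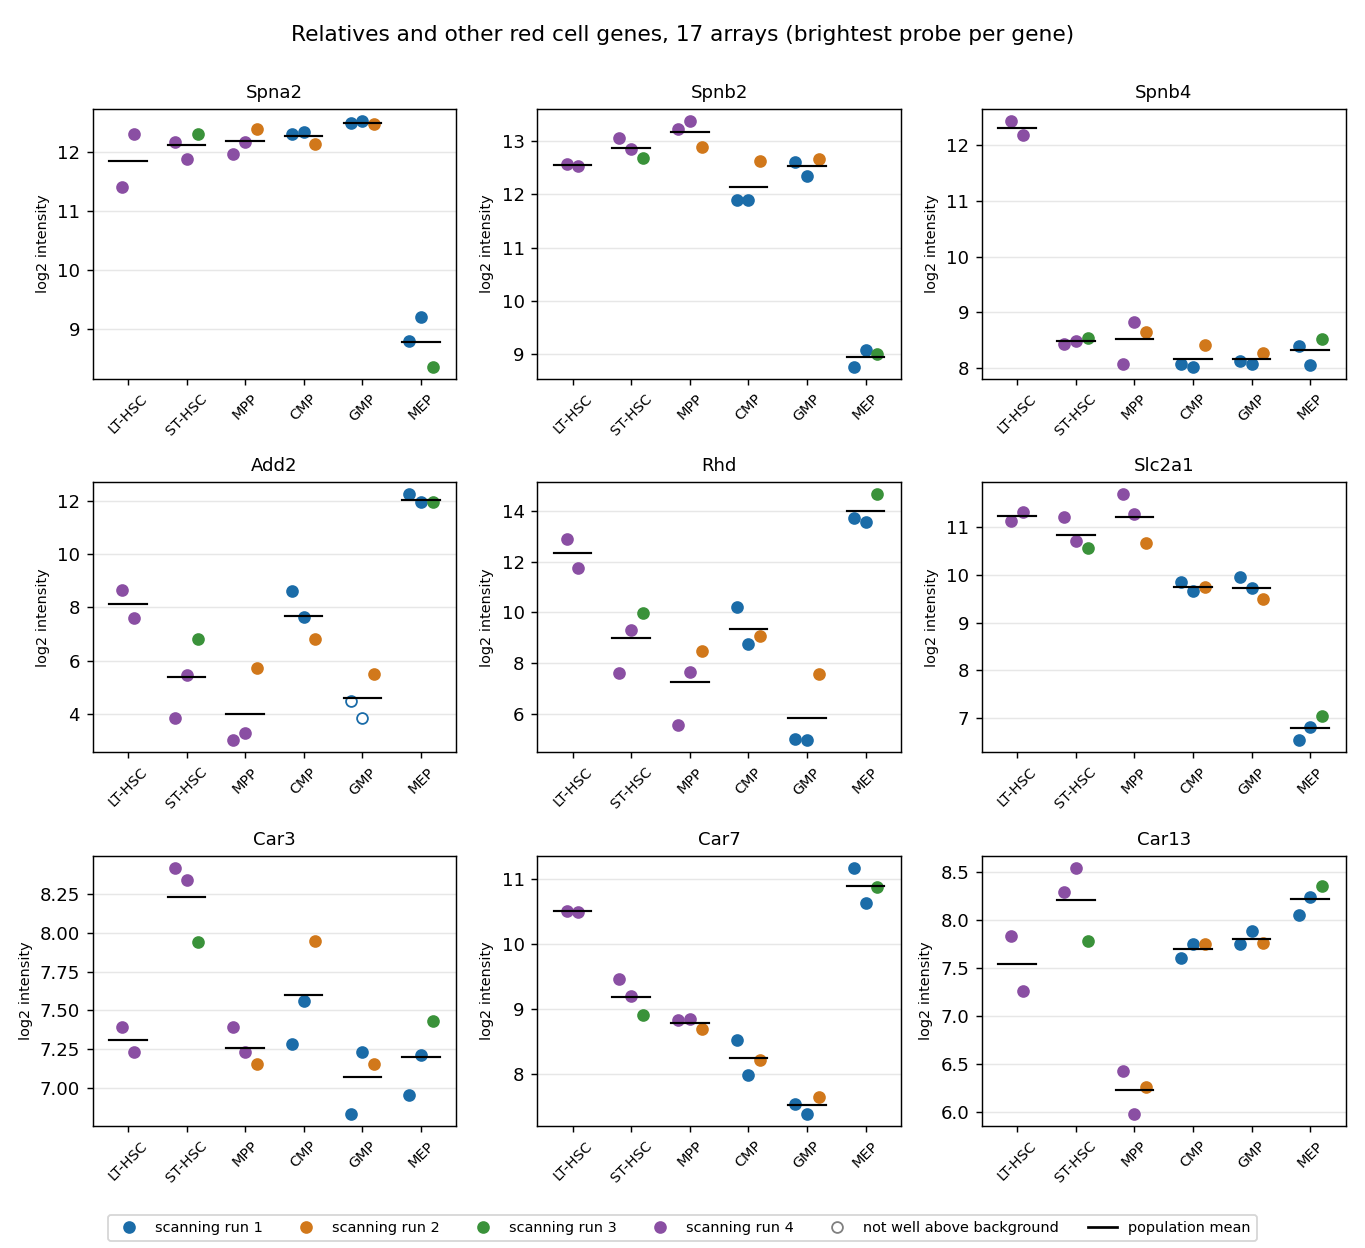
Log2 intensity of 9 genes outside the set on the 17 arrays, by population, with points and lines as in the plot of the members. Spna2, Spnb2 and Slc2a1 are lowest in the 3 MEP arrays, Add2 and Rhd highest there, and Spnb4 is high in the 2 LT-HSC arrays.

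Of 14 other carbonic anhydrases 3 were called higher in MEP and 2 lower, near the 15.8% and 15% of all genes, and the median difference was -0.08. Car7, a cytosolic enzyme, was higher by 2.04, Car15 by 1.84 and Car13 by 0.72, while Car9, a membrane-bound form, was lower at a difference of -1.19. Car12, also membrane-bound, was called lower, but no MEP array detected it and the mean of the others was under the detection mark of the MEP arrays, so no size can be given. Between LT-HSC and ST-HSC 2 of the 14 were called, Car7 higher in LT-HSC by 1.31 (adjusted p = 0.00371, limma) and Car3 higher in ST-HSC by 0.92 (adjusted p = 0.0441, limma). The probes of Car13, Car1, Car3 and Car2 follow each other along chromosome 3 of mm9, from 14661587 (Car13) and 14767486 (Car1) to 14871781 (Car3) and 14900206 (Car2). Car3, between Car1 and Car2, was at 6.95, 7.21 and 7.43 in MEP and 6.83 to 8.42 elsewhere, so the groups overlapped, and it did not pass (difference -0.3, 95% interval -0.64 to 0.04, adjusted p = 0.184, limma). The difference of Car13 was 0.72, against 4.75 for Car1 and 3.08 for Car2.

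**Figure D5:**
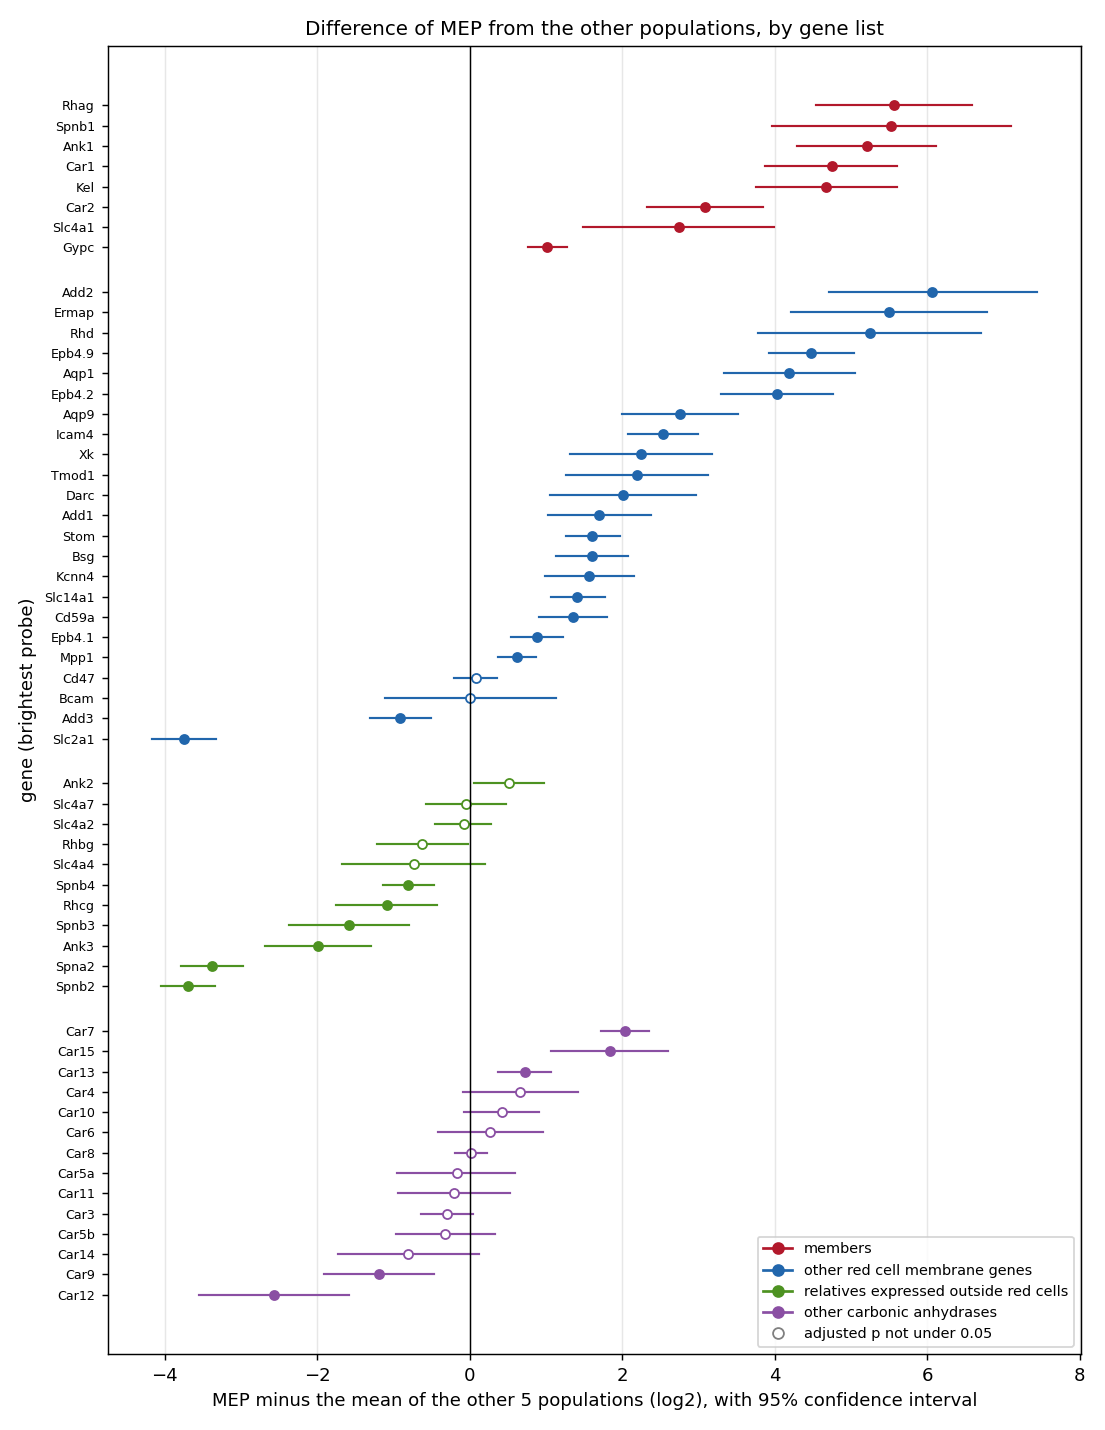
Difference between MEP and the mean of the other 5 populations on the log2 scale, for the brightest probe of each gene, with the 95% confidence interval of the fit. Genes are grouped as the 8 members, 23 other red cell membrane genes, 11 relatives expressed outside red cells and 14 other carbonic anhydrases, and open points did not pass an adjusted p of 0.05. The members run from 1.02 (Gypc) to 5.56 (Rhag), and the relatives reach -3.7 (Spnb2). No MEP array detected Ank3, Spnb3 or Car12, so the sizes plotted for these have no firm meaning.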

How the data were processed

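RNA of 6 sorted populations was hybridized to 17 single-color Agilent arrays. The deposited scanner files hold intensities (gProcessedSignal) that, per the file headers, the Agilent Feature Extraction software 10.2.1.3, or 9.5.3.1 for run 1, had corrected for background. The authors also deposited log2 values, quantile normalized between arrays, which were used as an alternative. Here intensities were quantile normalized over all spots and log2 transformed, outlier spots were set to missing (161 probe values), 1639 control spots were left out and spots of a probe were averaged. Contrasts were fitted with limma 3.58.1 in R 4.3.3, with Benjamini-Hochberg adjustment over 41174 probes at 0.05, and intervals are 95% intervals of the fit. The script was tested on simulated data. Genes of a list were read by the brightest probe. The 3 most similar probes of each member were sought, of which not all are named. Alternatives comprised 29 settings. One gene of the set and one listed gene stayed in the fit and are not reported here. The members, gene lists and tests were chosen with earlier results of these data known, and 2 settings and the LT-HSC counts were added after seeing the data.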

Additional observations from a re-analysis of the deposited data

How the results depend on the processing

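MEP was higher than the mean of the others for 15 probes and than CMP for 14 under each setting that tested the 15 probes, leave-one-out fits included (15 to 15 and 14 to 14). Read by gene, with the brightest probe or the mean of all probes, only 8 items are tested: 8 and 8 were called for MEP against the others, 8 and 8 against CMP, 5 and 5 for CMP against GMP, 7 and 7 for HSC subsets against myeloid populations, and 69 and 70 of the population pairs, while the F-test gave 5 with the brightest probe. With the scanning run as a block the F-test gave 2, HSC subsets against myeloid populations 2 and LT-HSC above ST-HSC 7. Taking runs 2 and 3 as 1 run gave 2 and 7 for the latter comparisons. The run block without LT-HSC arrays gave 7 for HSC subsets against myeloid populations, 3 for the F-test and 75 pairs, of 10 pairs of populations instead of 15, against 125, while leaving out the LT-HSC arrays with no block gave 92. With slide as a random block the counts were 9 for HSC subsets against myeloid populations and 1 for LT-HSC above ST-HSC. The causes of the other changes were not tested. Leaving out 1 array at a time gave 3 to 9 for CMP against GMP, 11 to 13 for HSC subsets against myeloid populations, 3 to 10 for the F-test, with 3 without MEP 1 or without MEP 2 and 4 without the unnumbered MEP array, 110 to 130 pairs, 31 to 33 listed genes, 2 to 4 for LT-HSC above ST-HSC and 6 to 7 for LT-HSC above MPP.

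The labels do not say that a replicate number pairs samples, and the data do not settle it: deviations of arrays with the same number correlated at 0.13 to 0.52 on a shared slide (8 pairs) and at -0.06 to 0.01 on different slides (6 pairs), and arrays with different numbers on a shared slide at 0.1 and 0.33 (2 pairs). With the number as a replicate block, the unnumbered arrays formed a single block and the LT-HSC pool a block of its own. LT-HSC then rested on its unnumbered array alone, so no count against ST-HSC is given. The counts were 15 for MEP against the others, 14 against CMP and 9 for CMP against GMP. They were 13 for HSC subsets against myeloid populations and 3 for the F-test. Signal over background limits Rhag and most Spnb1 and Ank1 probes outside MEP, where values near background have no firm order.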
